A study of Mus musculus with 6 samples.

Results

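Among the CD45+ cells sorted from digested joints of arthritic mice, 8 genes that mark blood stem and progenitor cells were followed: Meis1, Mecom, Angpt1, Adgrl4, Muc13, Cd34, Kit and Gata2. They are 8 of the 20394 genes in the table of counts, found by symbol, and all 8 were found. The genes had been chosen from measured values of these same cells, so their levels are given as a description, with no test.

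The mice were C57BL/6 males bought at 8 weeks of age. All of them had antigen-induced arthritis (AIA), made by immunization under the skin with 10 μg of methylated bovine serum albumin (mBSA) in complete Freund's adjuvant and, on day 21, by 100 μg of mBSA injected into the knee. The 2 samples of the vehicle group came from mice that received PBS, and the 4 samples of the other group from mice that received 300 μg of PEPITEM, a peptide, into the peritoneum. The joints of the lower limbs were digested with enzymes on day 3 after the challenge, the CD45+ cells were sorted, and RNA was counted in single cells from its 3′ end, as unique molecular identifiers (UMIs). No healthy joint, blood or bone marrow was analysed here. Cells of the synovium could therefore not be told apart from any cells of blood or bone marrow in the digest.

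No cell could be assigned to PBS or PEPITEM. The cell barcodes end in a number from 1 to 6, and none of the sources used here ties these numbers to the samples, so the numbers stand for 6 libraries of unknown treatment and no comparison of PBS with PEPITEM was made. The libraries held 2919 to 9345 cells and 47273569 to 123367661 UMIs, with a median of 9923 to 14001 UMIs per cell. Of the barcode sequences, 138 occurred in more than 1 library, in 276 of the 32953 cells. Levels are given as CPM, the UMIs of a gene per 1000000 UMIs of the same cells. Intervals are 95% intervals, exact Poisson for CPM and Wilson for shares of cells, and cover counting error only. Each pooled level is followed by the lowest, the median and the highest of the libraries that held at least 10 cells of the class.

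Blood cells descend from stem cells that keep a shared set of transcription factors and surface proteins and lose most of them as they commit to a lineage. Meis1 is a homeobox factor that works with Hox proteins, Mecom is a zinc finger factor needed by stem cells, and Gata2 is a factor of stem cells, mast cells and basophils. Kit is the receptor for stem cell factor, and Adgrl4 is an adhesion G protein-coupled receptor best known from endothelium. Angpt1 is the secreted ligand of the receptor Tie2, Cd34 is a sialomucin on progenitors, endothelium and some fibroblasts, and Muc13 is a transmembrane mucin. Several of the 8 genes are also known outside the stem cell compartment, so each was read in all classes of cells.

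Classes were set by marker gates in which no member took part. A cell was progenitor-gated when it had a UMI of at least 6 of 12 progenitor markers (among them Hlf, Hoxa9, Adgrg1, Erg, Mycn, Nkx2-3, Flt3, Myb, Cdk6, Sox4 and Lmo2) and a larger share of them than of the markers of any other class whose gate it met. This held for 361 cells, 1.10% of all cells (0.989 to 1.21%), from 15 in library 3 to 120 in library 2, or 0.514% to 2.07% of a library. The share was 0.640% when 2 UMIs were required for detection and 0.565% when cells were thinned to 5000 UMIs before gating. Of the 12 markers, Cdk6 was found in 98.3% of these cells, Sox4 in 93.4%, Lmo2 in 90.3% and Mycn in 8.59%. Ptprc, the gene of CD45, was found in 92.2% of them. Of the 6 endothelial markers, Emcn was found in 9.14% of them, Flt1 in 6.93%, Cdh5 in 6.09%, Plvap in 2.77%, Kdr in 0.831% and Ptprb in 0.554%. In the other cells the shares were 0.230%, 5.62%, 1.31%, 0.270%, 1.30% and 0.141% in the same order, so all but Kdr were found more often in progenitor-gated cells. These shares were not adjusted for depth. By CPM, Flt1 (6.90 against 9.01) and Kdr (0.431 against 2.03) were lower in progenitor-gated cells and the other endothelial markers higher. The part of endothelial markers in the levels of the members was not tested. The gate was met by 1010 cells in all, of which 404 also met the gate of granulocyte precursors, 223 that of B cells and 195 that of monocytes.

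On the mouse assembly GRCm38, in the GENCODE annotation, all 8 members are protein-coding genes. Meis1 lies on chromosome 11 (18879817 to 19018985, minus strand), Mecom on chromosome 3 (29951296 to 30548008, minus strand) and Gata2 on chromosome 6 (88193891 to 88207032, plus strand). Kit lies on chromosome 5 (75574916 to 75656722, plus strand) and Adgrl4 on chromosome 3 (151437887 to 151545086, plus strand). Angpt1 lies on chromosome 15 (42424723 to 42676977, minus strand), Cd34 on chromosome 1 (194938819 to 194961279, plus strand) and Muc13 on chromosome 16 (33794037 to 33819934, plus strand). Their sizes run from 13.1 kb for Gata2 to 597 kb for Mecom.

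The 250 bases before the start sites of the members were searched for short motifs of blood cell factors, since the members were detected together in the same cells. RefSeq start sites on GRCm38.p6 gave 11 such stretches for 7 members, and Angpt1 had no entry. The search covered both strands. For GATA factors it used AGATAA or, as the other form, TGATAA. For ETS factors it used CCGGAAG. For Meis and related factors it used TGACAG. For Runx factors it used TGTGGT. No matches overlapped. Shown are 3 stretches that hold a match, 5′ to 3′ on the strand of the gene, with matches in capitals: that of Meis1 (chr11:19018970-19019219, minus strand), 1 of the pair for Mecom (chr3:30509760-30510009, minus strand, inside the annotated gene) and that of Adgrl4 (chr3:151437632-151437881, plus strand, just upstream of the gene).
Meis1: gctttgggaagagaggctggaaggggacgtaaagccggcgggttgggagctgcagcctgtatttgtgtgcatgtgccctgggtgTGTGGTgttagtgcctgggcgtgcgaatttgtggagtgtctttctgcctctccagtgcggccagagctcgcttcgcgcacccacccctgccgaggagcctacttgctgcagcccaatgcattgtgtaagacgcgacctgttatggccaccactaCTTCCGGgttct
Mecom: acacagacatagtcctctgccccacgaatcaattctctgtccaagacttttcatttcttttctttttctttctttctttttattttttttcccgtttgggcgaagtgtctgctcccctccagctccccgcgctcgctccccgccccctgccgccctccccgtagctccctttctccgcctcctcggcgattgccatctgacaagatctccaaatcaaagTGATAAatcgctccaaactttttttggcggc
Adgrl4: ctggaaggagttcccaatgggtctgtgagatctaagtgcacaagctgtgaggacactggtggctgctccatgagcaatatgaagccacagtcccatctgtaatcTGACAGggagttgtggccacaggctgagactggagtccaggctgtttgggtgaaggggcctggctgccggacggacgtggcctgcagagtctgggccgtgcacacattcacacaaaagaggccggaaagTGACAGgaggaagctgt
The stretch of Meis1 held a Runx match from base -166 and an ETS match from base -12, counted back from the start site. That of Mecom held a GATA match from base -31, and that of Adgrl4 held Meis matches from bases -146 and -17. The other stretch of Mecom held a Meis match from base -86, and the stretches of Cd34, Kit, Gata2 and Muc13 held none of these letters. Of all 32851 stretches in the table, 16.6% held a GATA match, 6.91% an ETS match, 15.9% a Meis match and 14.0% a Runx match, and of the 11 stretches of members 1, 1, 2 and 1 did. A match of so few letters describes the sequence and does not locate binding.

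All 8 members had a higher CPM in progenitor-gated cells than in the other cells pooled, as did 7692 of the 12511 genes with at least 500 UMIs. For most of the members the highest class was another. Among the 16 classes with at least 20 cells, Mecom and Adgrl4 were highest in progenitor-gated cells, 2 of 8 members. Of the 12511 genes with at least 500 UMIs, 3.04% were highest there. Meis1 and Angpt1 were higher in megakaryocyte-gated cells, Muc13 in erythroid-gated cells, Cd34 in fibroblast-gated cells, Kit in mast-gated cells and Gata2 in basophil-gated cells. The order depends in part on which gate took a cell. Of the 33 megakaryocyte-gated cells 26 also met the progenitor gate, as did 39 of the 84 erythroid-gated cells. With the level in progenitor-gated cells divided by that in all other cells, after adding 1 CPM to each, the median over the members was 35.6, against 1.21 over the 12511 genes.

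**Figure D1:**
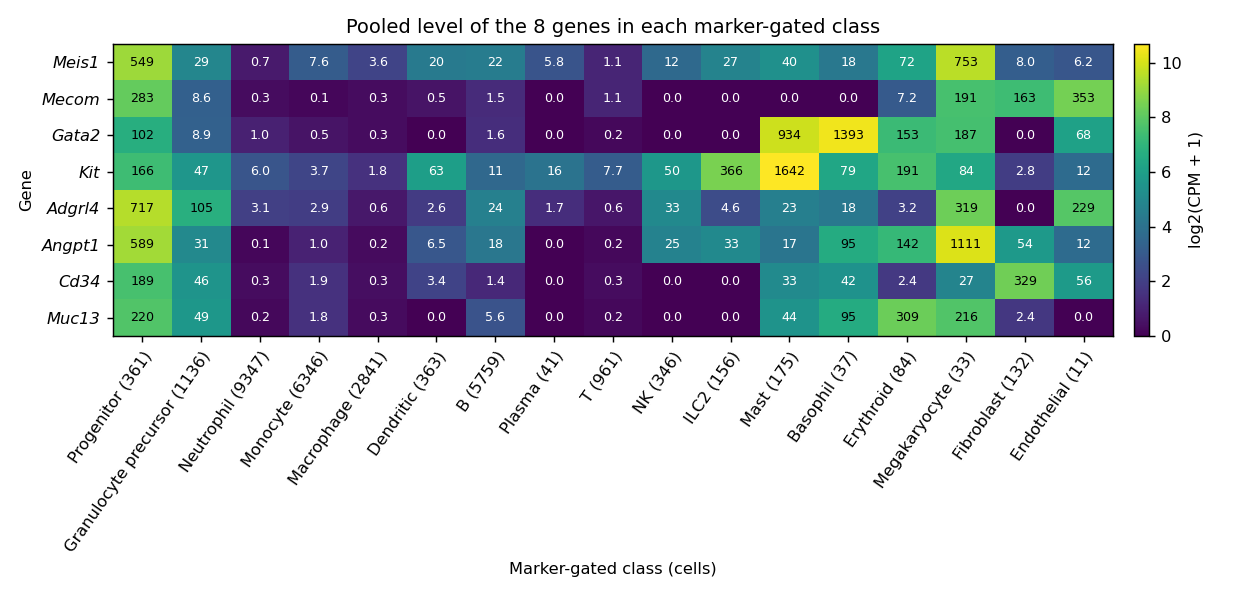
Pooled level of each of the 8 genes (rows) in each of the 17 marker-gated classes that held cells (columns, cells in parentheses). Color gives log2(CPM + 1) and the printed figure the CPM. The progenitor column is the only one in which all 8 genes exceed 100 CPM, from 102 for Gata2 to 717 for Adgrl4, and the highest values of Kit and Gata2 lie in the mast and basophil columns.

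Meis1 was found in 86.4% of the progenitor-gated cells (82.5 to 89.6%), at 549 CPM (532 to 567). The libraries ran from 286 CPM through a median of 508 to 695 CPM, so the lowest library still lay far above every class other than the megakaryocyte-gated one. Cells with at least 5000 UMIs were thinned to 5000, which removes differences in depth, and shallower cells were left out. Of the progenitor-gated cells so thinned, 67.8% kept a Meis1 UMI. In T-gated cells, which should lack it, the shares were 1.04% before and 0.461% after thinning, at a median depth of 9320 UMIs per cell against 17653 in progenitor-gated cells. Megakaryocyte-gated cells, of which there were only 33, had 753 CPM (691 to 818), with 373 to 1121 CPM in the 3 libraries that held at least 10 of them. The ranges over libraries of these classes overlapped, although the counting intervals did not, and 26 of the 33 cells also met the progenitor gate. Erythroid-gated cells followed at 72.4 CPM and mast-gated cells at 39.9 CPM. Of all Meis1 UMIs, 43.0% lay in the 361 progenitor-gated cells.

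Mecom was the member most concentrated in these cells, which held 62.7% of its UMIs. It was found in 45.7% of them (40.6 to 50.9%; 36.4% after thinning) and in 0.104% of T-gated cells. Its level was 283 CPM (270 to 296), with libraries from 93.3 through 242 to 515 CPM. That was the widest spread of the 8 members: the lowest library had 15 progenitor-gated cells and the highest had 24. Megakaryocyte-gated cells reached 191 CPM and fibroblast-gated cells 163 CPM, and the ranges over libraries of neighbors in this order overlapped. Below these the level fell steeply, to 8.63 CPM in granulocyte precursor-gated cells. The 11 endothelial-gated cells had 353 CPM (267 to 457), more than the progenitor-gated cells, but were too few to be ranked. No Mecom UMI was counted in 346 NK-gated cells, which allows a share of up to 0.867% of cells with a UMI, nor in 175 mast-gated cells, which allows up to 1.71%. Such limits, here and below, hold for cells with a UMI at the depth measured and not for cells that express the gene.

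Gata2 was lower in progenitor-gated cells than in 4 other classes. It was found in 46.8% of the progenitor-gated cells (41.7 to 52.0%; 29.7% after thinning), at 102 CPM (94.5 to 110) and with libraries from 42.7 through 99.0 to 124 CPM. Basophil-gated cells had 1393 CPM and mast-gated cells 934 CPM, and Gata2 was found in 94.6% and 85.7% of these cells. Megakaryocyte-gated cells had 187 CPM and erythroid-gated cells 153 CPM, and their intervals overlapped. Both classes hold cells that also met the progenitor gate, and the erythroid-gated cells are split by it below. T-gated cells had a Gata2 UMI in 0.208%. No Gata2 UMI was counted in 363 dendritic-gated cells, which allows a share of up to 0.826%, in 132 fibroblast-gated cells, which allows up to 2.27%, or in the NK-gated cells. The 175 mast-gated and 37 basophil-gated cells held 23.9% and 15.0% of all Gata2 UMIs, against 20.1% in progenitor-gated cells.

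Kit was the least concentrated member, with 12.5% of its UMIs in progenitor-gated cells. These had 166 CPM (156 to 176), with libraries from 96.3 through 153 to 201 CPM. A Kit UMI was found in 77.6% of them (73.0 to 81.6%) and in 46.5% after thinning, against 3.54% and 1.84% of T-gated cells. Mast-gated cells led with 1642 CPM and libraries from 1427 to 1931 CPM, which lay apart from every other class, and Kit was found in 98.3% of them. Gated type 2 innate lymphoid cells (ILC2) followed with 366 CPM (334 to 401) and libraries from 169 to 510 CPM. Erythroid-gated cells at 191 CPM and progenitor-gated cells had overlapping intervals. The erythroid-gated cells are split by the progenitor gate below. Dendritic-gated cells had 62.6 CPM, with Kit in 33.6% of them, and NK-gated cells 50.1 CPM, with Kit in 17.9%.

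Adgrl4 had its highest level in progenitor-gated cells, at 717 CPM (697 to 737). Here library 2 stood apart with 1060 CPM, while the median of the libraries was 525 and the lowest 415 CPM, and without library 2 the pooled level was 550.0 CPM. It was found in 78.4% of the cells (73.9 to 82.3%; 63.6% after thinning) and in 0.104% of T-gated cells. Megakaryocyte-gated cells, the next class, had 319 CPM and libraries from 186 to 402 CPM, below all libraries of progenitor-gated cells. The 11 endothelial-gated cells had 229 CPM (161 to 316), with Adgrl4 in 72.7% of them. Granulocyte precursor-gated cells had 105 CPM and held 33.6% of the Adgrl4 UMIs, and NK-gated cells had 32.7 CPM, with Adgrl4 in 13.3%. In the 132 fibroblast-gated cells, which carried Mecom and Cd34, no Adgrl4 UMI was counted, which allows a share of up to 2.27%.

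Angpt1, the ligand, was found in 76.7% of the progenitor-gated cells (72.1 to 80.8%; 60.5% after thinning), at 589 CPM (571 to 607). The libraries were close to each other, with 439, 593 and 721 CPM as lowest, median and highest. Megakaryocyte-gated cells had 1111 CPM (1036 to 1190) and libraries from 655 to 1604 CPM, and each of the 33 cells had an Angpt1 UMI. Their counting interval lay above that of the progenitor-gated cells, while the ranges over libraries overlapped. Erythroid-gated cells had 142 CPM, basophil-gated cells 94.6 CPM and fibroblast-gated cells 54.2 CPM. T-gated cells had an Angpt1 UMI in 0.208%.

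Cd34 was found in 69.0% of the progenitor-gated cells (64.0 to 73.5%; 45.7% after thinning), at 189 CPM (179 to 200), with libraries from 155 through 194 to 256 CPM. Fibroblast-gated cells had more, 329 CPM (305 to 354), with libraries from 92.5 to 475 CPM that overlapped those of progenitor-gated cells. Granulocyte precursor-gated cells followed with 45.6 CPM and held 38.1% of the Cd34 UMIs. Cd34 set the progenitor-gated cells apart from the erythroid-gated cells, which had 2.41 CPM, and from the megakaryocyte-gated cells, which had 27.2 CPM. T-gated cells had a Cd34 UMI in 0.312%.

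Muc13 was found in 60.9% of the progenitor-gated cells (55.8 to 65.8%; 38.1% after thinning), at 220 CPM (209 to 231), with libraries from 138 through 211 to 271 CPM. Erythroid-gated cells had 309 CPM (288 to 332), with libraries from 257 to 395 CPM. Of these 84 cells 39 also met the progenitor gate, and both parts are given below. Megakaryocyte-gated cells at 216 CPM did not differ from progenitor-gated cells beyond the counting intervals. Granulocyte precursor-gated cells had 49.3 CPM and held 35.4% of the Muc13 UMIs. Muc13 was found in 0.104% of T-gated cells. No Muc13 UMI was counted in 363 dendritic-gated cells, which allows a share of up to 0.826%, or in 346 NK-gated cells, which allows up to 0.867%.

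**Figure D2:**
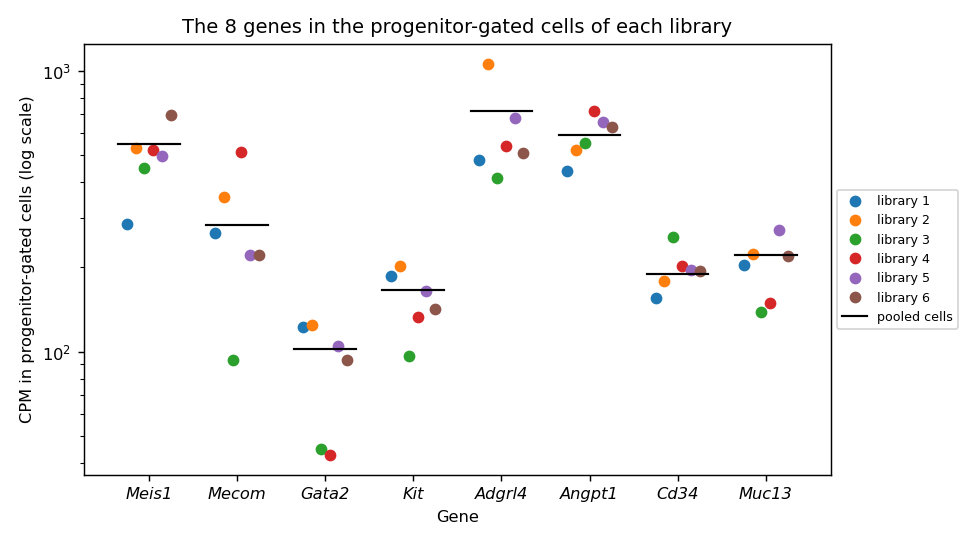
CPM of each gene in the progenitor-gated cells of each of the 6 libraries (points, log scale) and in the pooled cells (black lines). The libraries hold 15 to 120 such cells. Cd34 and Angpt1 vary least, with highest values of 256 and 721 CPM over lowest values of 155 and 439 CPM, and Mecom varies most, from 93.3 to 515 CPM.

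Over all cells of a library, the share of cells with a member differed between libraries. Adgrl4 was found in 2.71% of the cells of library 3 and 8.64% of those of library 6, and Muc13 in 1.25% of library 4 and 4.92% of library 6. Kit differed least, from 7.53% of library 4 to 9.99% of library 6. Library 4 had the lowest share of cells for 6 of the 8 members, and library 2 or 6 the highest for all 8. The gated shares moved with this: libraries 2 and 6 had 2.07% and 1.42% progenitor-gated cells and the other libraries 0.514% to 0.760%. Fewer cells of a class and less RNA per cell cannot be told apart in such shares over all cells. Median depths were 14001, 13065 and 13052.5 UMIs per cell in libraries 1, 3 and 4, and 10768, 9923 and 11237 in libraries 2, 5 and 6. The part of depth in these shares was not tested.

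A cell with at least 3 of the 8 genes was rare outside a few classes. Over all cells 1106 cells, or 3.36% (3.17 to 3.56%), had 3 or more members, 26747 cells had none and 89 cells had all 8. The median depth was 25241.5 UMIs in cells with 3 members and 10081 in cells with none. After thinning to 5000 UMIs the share was 2.11% of 26713 cells. Among progenitor-gated cells 317 of 361, or 87.8% (84.0 to 90.8%), had 3 or more, with libraries from 75.0% to 91.7%, and 74.5% of the thinned cells did. The median progenitor-gated cell had 6 members, 60 cells had 8 and 10 cells had none. All 33 megakaryocyte-gated cells and 72.6% of the 84 erythroid-gated cells reached 3 members, as did 31.4% of the mast-gated cells, and after thinning 78.8%, 37.0% and 29.7% did. Thinning kept only 74 of the 175 mast-gated cells, so their shares before and after are not of the same cells. In macrophage-gated cells 0 of 2841 did, in neutrophil-gated cells 5 of 9347, and in T-gated cells 1 of 961.

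**Figure D3:**
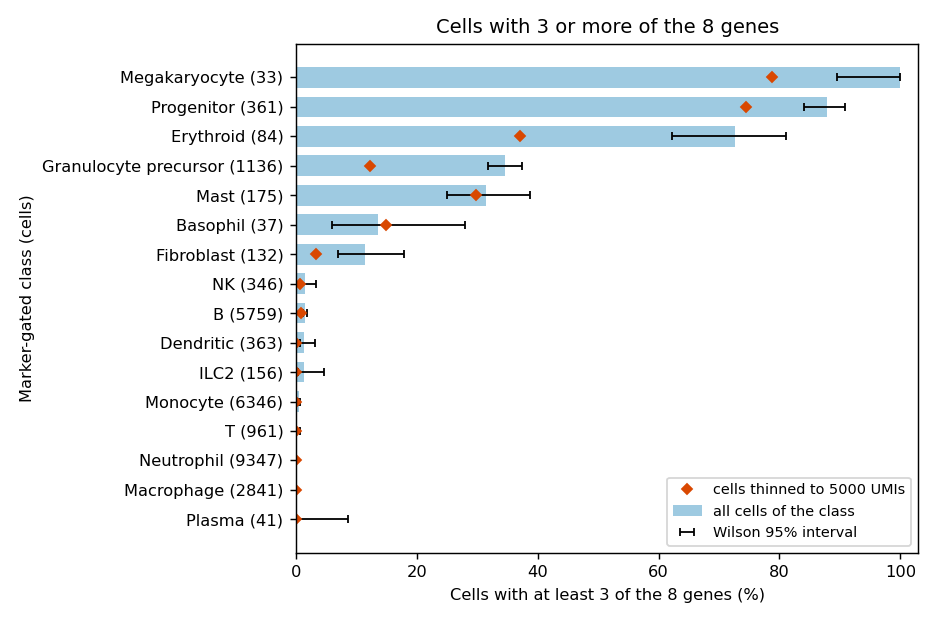
Share of cells with at least 3 of the 8 genes in each marker-gated class with 20 or more cells (bars, with Wilson 95% intervals). Diamonds give the share among the cells of the class with at least 5000 UMIs, thinned to 5000. Shallower cells are left out of the diamonds. Megakaryocyte-gated, progenitor-gated and erythroid-gated cells reach 100%, 87.8% and 72.6%, and the thinned value of granulocyte precursor-gated cells, 12.2%, lies well below the 34.5% of all cells of that class.

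The largest number of cells with 3 or more members, 392, lay in the granulocyte precursor gate, as many as 35.4% of all such cells and more than the 28.7% in the progenitor gate. In that class 34.5% of the cells had 3 or more members, but 12.2% after thinning, and its median depth was 32921.5 UMIs per cell. The 296 cells that also met the progenitor gate had 3 or more members in 86.8% of cases, against 16.1% in the other 840. In these 840 cells Kit was found in 43.1% and Adgrl4 in 37.7%, or 13.8% and 13.9% after thinning, while Mecom was found in 1.07% and Gata2 in 0.952%. The split by the second gate was chosen after its values were seen.

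Between libraries the share of cells with 3 or more members ran from 1.44% (1.07 to 1.94%) in library 3 to 4.76% (4.3 to 5.27%) in library 6, with 4.46% in library 2 and 3.34% in library 5. The intervals of libraries 3 and 6 lay far apart. Granulocyte precursor-gated cells made up 0.891% of library 3 and 5.77% of library 6, and erythroid-gated cells 0.137% and 0.491%. Macrophage-gated cells moved the other way, with 13.4% of library 3 and 4.5% of library 6. Libraries 2 and 5 held 2.17% and 4.59% granulocyte precursor-gated cells, the reverse of the order of their shares with 3 or more members. Which of these libraries came from PEPITEM-treated mice cannot be said from the sources used here.

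Within the 361 progenitor-gated cells some pairs of members were found in the same cells more often than others. For each of the 28 pairs the cells with both genes were counted and set against the number expected from each gene's share in each library. The ratio was above 1 for all 28 pairs, from 1.02 to 1.40 with a median of 1.09. In thinned cells it was below 1 for Adgrl4 and Gata2 (0.945), Cd34 and Gata2 (0.969) and Muc13 and Cd34 (0.889). The phi coefficient, a correlation of presence and absence over the cells, ran from 0.03 to 0.55. These cells share libraries and differ in depth, and thinned cells gave -0.07 to 0.45. Adgrl4 and Cd34 were found together in 233 cells (196 expected) with the highest phi of 0.55 (0.45 thinned), and Mecom gave 0.44 with Cd34 and 0.35 with Adgrl4. Among Angpt1, Muc13 and Gata2 phi was 0.51 for Angpt1 and Muc13, 0.47 for Muc13 and Gata2 and 0.45 for Angpt1 and Gata2. The lowest values were 0.03 for Adgrl4 and Gata2, 0.04 for Cd34 and Gata2, and 0.10 for Adgrl4 and Muc13. The members did not fall into fully separate sets. Mecom also gave 0.36 with Angpt1 (0.25 thinned), 0.32 with Gata2 (0.17 thinned) and 0.26 with Muc13 (0.03 thinned). Angpt1 gave 0.23 with Cd34 (0.11 thinned) and 0.22 with Adgrl4 (0.19 thinned). In thinned cells the pairs among Adgrl4, Cd34 and Mecom gave 0.29 to 0.45, and those among Angpt1, Muc13 and Gata2 gave 0.30 to 0.34. Between these sets the highest thinned value was the 0.25 of Mecom and Angpt1. The sets were read from the phi values themselves, and the thinned cells are the same cells. Higher values within the sets are therefore no separate result. The highest phi of Kit was with Angpt1 (0.35) and that of Meis1 with Cd34 (0.29).

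**Figure D4:**
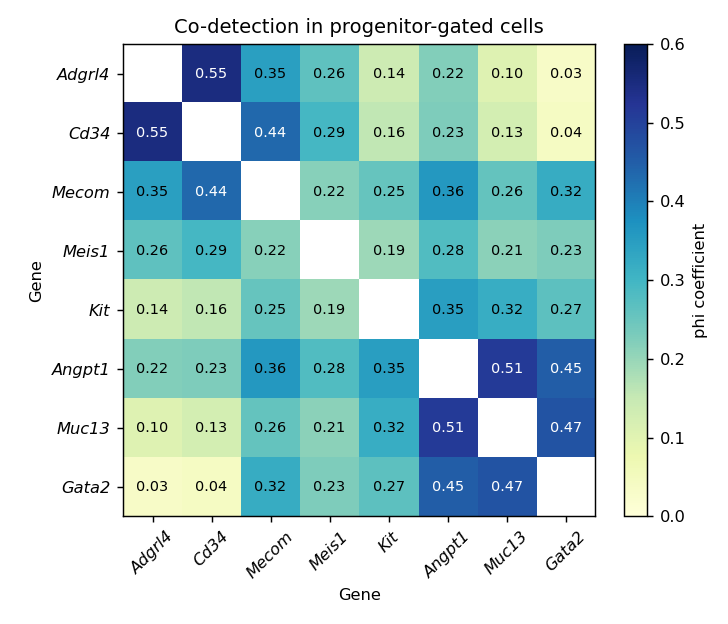
Phi coefficient of the presence of each pair of genes over the 361 progenitor-gated cells, before thinning. Darker cells mark pairs found together more often. Pairs among Adgrl4, Cd34 and Mecom give 0.35 to 0.55 and pairs among Angpt1, Muc13 and Gata2 give 0.45 to 0.51, while Mecom gives 0.36 with Angpt1 and 0.32 with Gata2, and Adgrl4 with Gata2 gives 0.03.

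The levels in cells with and without Gata2 restate, for all 7 other members, the pairs counted above, and are given as a description. Progenitor-gated cells with a Gata2 UMI (169) and without (192) had medians of 17489 and 17693 UMIs, with lower quartiles of 14306 and 13932 and upper quartiles of 22816 and 23706.5 UMIs. Cells with Gata2 had 982 CPM of Angpt1 against 250 CPM, 344 against 112 CPM of Muc13 and 402 against 180 CPM of Mecom, whereas Cd34 was about level, with 183 against 195 CPM. Angpt1 and Mecom, 2 of the 7 other members, were higher with Gata2 in all 6 libraries, while 4.56% of the 10265 genes with at least 500 UMIs and at least 5 CPM in either group were. For Angpt1 the libraries ran from 551 through 1087 to 1238 CPM with Gata2 and from 216 through 260 to 407 CPM without, and these ranges did not overlap. Library 3, with only 5 cells with Gata2 and 10 without, is part of these ranges and of the counts over 6 libraries.

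Genes of lymphoid priming were lower in the cells with Gata2. All 6 listed genes were lower there, as were 49.6% of the 10265 genes, and 5 of the 6 were lower in all 6 libraries, as were 8.09% of the 10265. Flt3, a cytokine receptor that was also a marker of the gate, had 114 CPM with Gata2 and 437 CPM without. Dntt, the terminal transferase of early lymphoid cells, had 70.5 and 666 CPM, and Il7r, the receptor of interleukin 7, 2.17 and 104 CPM. Rag1, of the recombinase, was low in all progenitor-gated cells, with 2.73 CPM. Notch1 had 19.9 and 82.4 CPM, and the chemokine receptor Ccr9 0.311 and 62.4 CPM. Dntt reached 389 CPM with Gata2 in its highest library, above its lowest library without Gata2 at 199 CPM, so these ranges overlapped. The lower levels were not particular to Gata2. With and without Muc13, Flt3 had 179 and 480 CPM and Dntt 150 and 815 CPM, both lower with Muc13 in all 6 libraries. With and without Adgrl4, Flt3 had 305 and 215 CPM, Dntt 434 and 208 CPM and Notch1 54.8 and 47.7 CPM, all higher with Adgrl4. Il7r had 32.4 and 159 CPM, Ccr9 8.37 and 139 CPM and Rag1 1.78 and 6.71 CPM, all lower with Adgrl4. Of the 5 libraries compared, Flt3 was higher with Adgrl4 in 3 and Dntt in 5, and Il7r and Ccr9 were lower in 5. How many of all genes lay on the same side in every library was not counted for the splits by Muc13 and Adgrl4.

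Genes of megakaryocyte and erythroid priming were higher in the cells with Gata2. All 4 listed genes with enough UMIs were higher there, as were 50.4% of the 10265 genes, and 2 of the 4 were higher in all 6 libraries, as were 4.56% of the 10265. Among the first of the list, Gata1 and Klf1, factors of the erythroid and megakaryocyte lineages with under 500 UMIs each, had 22.7 against 5.09 CPM and 11.2 against 0.268 CPM. Itga2b, an integrin of megakaryocytes, had 84.4 against 17.4 CPM, and Pf4, a platelet chemokine, 68.9 against 5.09 CPM. For Pf4 the libraries ran from 3.70 through 26.3 to 336 CPM with Gata2 and from 0 through 3.46 to 11.1 CPM without. These ranges overlapped, and the highest value with Gata2 was that of library 3, from 5 cells. Of the 6 listed genes of mast cell and basophil priming at this level 5 were higher and 1 was so in all 6 libraries, beside the same 50.4% and 4.56% of all genes, and Cpa3, a mast cell protease, had 108 against 31.9 CPM. Of the 7 cell cycle genes none lay on the same side in all 6 libraries, and Mki67, a proliferation marker, had 178 against 140 CPM. Chosen after their values were seen, Irf8, a factor of monocytes and dendritic cells, had 21.7 CPM with Gata2 and 489 CPM without, and Tal1, a partner of Gata factors, 95.6 and 23.6 CPM. Of the 5 listed myeloid priming genes at this level 2 were higher and 3 lower with Gata2, and only Irf8 was lower in all 6 libraries. Of the 11 listed partner transcription factors 6 were higher and 5 lower, and 3, Tal1 among them, were higher in all 6 libraries. Of all 10265 genes 4.56% were higher and 8.09% lower in all 6 libraries. For Itga2b, Pf4, Tal1 and Irf8 these directions were not particular to Gata2. With and without Muc13, Itga2b had 70.5 and 9.54 CPM, Pf4 51.6 and 4.77 CPM and Tal1 83.1 and 10.7 CPM. Each was higher with Muc13 in all 6 libraries, and Irf8, with 48.2 and 669 CPM, was lower in all 6. With and without Adgrl4, Itga2b had 45.9 and 58.9 CPM and Irf8 177 and 674 CPM, both lower with Adgrl4 in the pooled cells. Tal1 had 58.4 and 50.7 CPM, higher with Adgrl4.

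**Figure D5:**
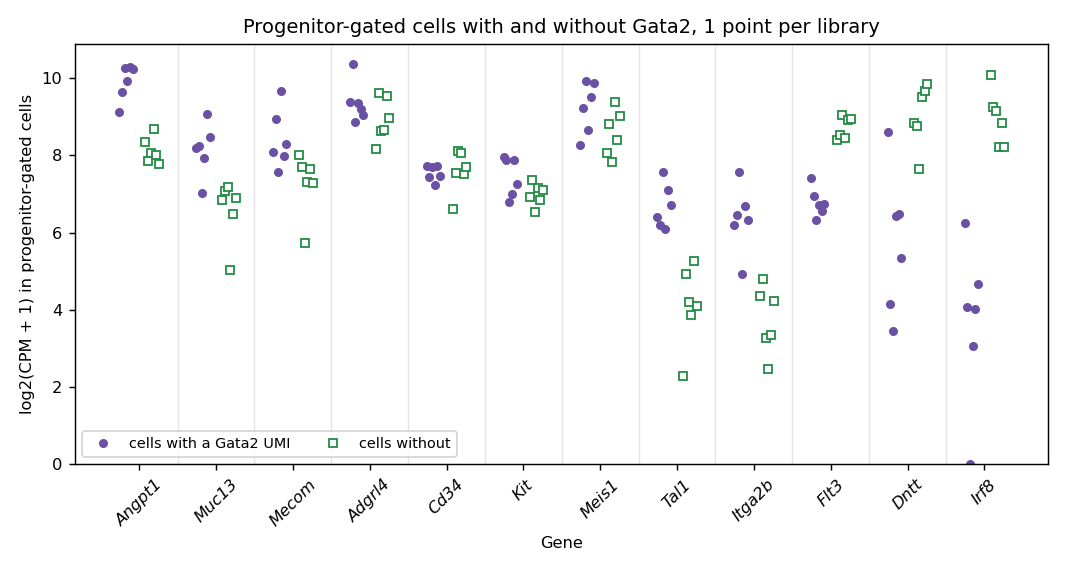
Level of the 7 other members and of 5 further genes in progenitor-gated cells with a Gata2 UMI (filled) and without (open), as log2(CPM + 1) with 1 point for each of the 6 libraries. Angpt1, Tal1 and Itga2b lie higher with Gata2 and Flt3 and Irf8 lower in every library, while the points of Cd34 overlap.

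A group of 34 progenitor-gated cells had Gata2 and no Adgrl4, and 148 had Adgrl4 and no Gata2. The former had 1.68 CPM of Dntt, 6.73 of Flt3, 501 of Muc13 and 1239 of Angpt1, against 739, 451, 124 and 288 CPM. Cd34 was lower in this group, with 48.8 against 226 CPM, as was Mecom, with 26.9 against 220 CPM. For Muc13, Angpt1, Cd34 and Mecom these levels restate pairs counted above. The split was not planned, and Adgrl4 and Gata2 were the pair with the lowest phi. Klf1 was found in 29.4% of these 34 cells and in 0.676% of the 148. Only 2 libraries held at least 5 cells of both groups, so no range over libraries is given. A split by Mecom gave in part the same directions as that by Gata2. Flt3 had 236 CPM with Mecom and 334 CPM without, and Dntt 259 and 507 CPM. Il7r had 10.0 and 98.5 CPM and Irf8 45.1 and 476 CPM. Each of these genes was lower with Mecom in all 6 libraries. Angpt1 had 702 and 488 CPM, higher in all 6, whereas Muc13 had 193 and 244 CPM, lower in 5 of 6. How many of all genes lay on the same side in all 6 libraries was not counted for this split. Procr, a receptor on stem cells, had 107 CPM with Mecom and 11.7 CPM without, higher in all 6 libraries, and 91.6 and 26.5 CPM with and without Gata2, higher in 4 of 6. Hlf, a factor of stem cells and a marker of the gate, had 227 and 64.2 CPM in the split by Mecom and 187 and 101 CPM in that by Gata2, higher in all 6 libraries in both.

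Of the partner transcription factors, 11 of 12 had at least 500 UMIs and 4 of these were highest in progenitor-gated cells, of which 3 were markers of the gate and Hoxa7 was not. Hoxa9 and Hoxa7, homeobox partners of Meis1, had 72.3 and 34.2 CPM there against 1.53 and 2.07 CPM in the other cells, and Hoxa10 had 5.61 against 0.122 CPM. Pbx3, another homeobox partner, had 49.6 CPM against 44.4 CPM in the other cells. Runx1, a factor of definitive blood formation, was found in 99.2% of the progenitor-gated cells, at 1157 CPM against 616 CPM. The median ratio to the other cells, with 1 CPM added, was 3.39 over the 11 genes, against 1.21 over all 12511. The 3 markers of the gate are among the 11, so this median was in part set by the gate.

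None of the 8 Kit and Tie2 signalling genes with enough UMIs was highest in progenitor-gated cells, and their median ratio was 1.17. Kitl, the ligand of Kit, had 0.719 CPM there and was highest in fibroblast-gated cells with 102 CPM. Tek, which encodes Tie2, the receptor of Angpt1, had 7.04 CPM in progenitor-gated cells and 70.8 CPM in megakaryocyte-gated cells, and Tie1, its relative, 8.77 and 28.6 CPM. Angpt2, the antagonist ligand of the family, had 3.45 CPM. Tek was thus higher in megakaryocyte-gated cells, the class with the highest Angpt1, than in progenitor-gated cells, but had too few UMIs to be ranked. Kit and Kitl were highest in different classes. The 268 and 246 UMIs of Tek and Tie1 limit what can be read from them.

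Of the stem cell genes 6 of 10 had enough UMIs and none was highest in progenitor-gated cells. A higher CPM there than in the other cells was seen for 9 of 10, as for 7692 of the 12511 genes with at least 500 UMIs. Some of the 10, among them Hlf, were markers of the gate. Hlf had 141 CPM and Procr 56.6 CPM, each the second class, behind ILC2-gated cells for Hlf with 415 CPM and fibroblast-gated cells for Procr with 240 CPM. Slamf1, Fgd5 and Hoxb5 were sparse, with 6.47, 4.74 and 1.01 CPM.

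Of the 7 myeloid priming genes 6 were lower in progenitor-gated cells than in the other cells, while 7692 of the 12511 genes with at least 500 UMIs were higher. The gates had a part in these lower levels, since 5 of the 7 are the markers of the granulocyte precursors and a cell richer in them was gated there. Mpo, a granule enzyme, had 196 CPM against 4149 CPM in granulocyte precursor-gated cells, and Elane 1.01 against 6223 CPM. Lymphoid priming genes held 2 of 6 that were highest in progenitor-gated cells, Flt3 with 288 CPM and Dntt with 390 CPM. Flt3 was a marker of the gate, and Dntt lay above the 151 CPM of B-gated cells. No gene of the megakaryocyte and erythroid, the mast cell and basophil or the cell cycle list was highest there. Over the 4 endothelial genes with enough UMIs the median ratio was 1.86. Cdh5 and Kdr, the defining genes of endothelium, had 6.47 and 0.431 CPM. Egfl7, chosen after its values were seen, was the only 1 of these 4 that was highest in progenitor-gated cells, with 90.1 CPM against 3.30 CPM in the other cells.

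Along the B lineage Adgrl4, Meis1 and Kit were found most often in the cells with Dntt, an early gene, and less often in later ones. In the 587 B-gated cells with Dntt, Adgrl4 had 132 CPM and was found in 39.7% (31.6% after thinning), Meis1 had 61.1 CPM and was found in 29.6%, and Kit had 57.4 CPM and was found in 29.6%. In 481 cells with the surrogate light chain genes Igll1 or Vpreb1 and no Dntt, Adgrl4 was found in 2.70%, Kit in 4.57% and Meis1 in 10.8%. In 2339 cells with Ms4a1, a mature B cell marker, and none of the early genes, Adgrl4 had 0.571 CPM and Kit 1.59 CPM. Angpt1 did not follow this order: it was highest, at 42.5 CPM and in 8.79% of cells, in the 1501 cells with Rag1 and none of Dntt, Igll1 and Vpreb1, with libraries from 32.8 to 59.3 CPM. Gata2 was not counted in any of the 587 cells with Dntt, which allows a share of up to 0.511%. Over all B-gated cells Adgrl4 ran from 3.70 to 63.9 CPM between libraries. These B cell subsets were chosen after their values were seen.

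In other lineages members were found in part of a class. Of the erythroid-gated cells, the 39 that also met the progenitor gate had 509 CPM of Muc13, 264 CPM of Kit, 244 CPM of Angpt1 and 239 CPM of Gata2, and the other 45 had 109, 118, 39.4 and 67.6 CPM. In both, Adgrl4 and Cd34 were under 5 CPM. Dendritic-gated cells with Ccr7 and no Siglech (111 cells) carried Kit at 84.4 CPM, in 52.3% of cells and 33.6% after thinning, and no UMI of Mecom, Angpt1, Adgrl4, Muc13 or Gata2. Those with Siglech, a plasmacytoid marker (189 cells), carried Meis1 at 38.8 CPM, in 22.8% of cells, and Kit at 25.7 CPM. In ILC2-gated cells Kit was found in 80.9% of the 47 cells with Il5 and 43.1% of the 109 without, or 71.4% and 47.8% after thinning. Thinning kept 111 of the 156 ILC2-gated cells, so the shares before and after are not of the same cells. Neutrophil-gated cells with the granule genes Camp and Ltf had a Kit UMI in 9.04% of cells and those without both in 1.13%, or 2.65% and 0.826% after thinning, near the 1.84% of T-gated cells. These subsets too were chosen after their values were seen.

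Among all other genes with at least 500 UMIs, 10 were named as most like the members by Pearson's r of log2(CPM + 1) with the mean of the 8 members over 63 units, each a class in a library with at least 20 cells, from 13 classes. These units share libraries and classes, and r is a description. The 10 genes were Gm15658 and Sdsl (both r = 0.88), Rab38 (0.86), Myct1 and Gm15657 (both 0.85), Hmga2 and 4930519L02Rik (both 0.84), Slc22a3 and Kctd1 (both 0.80) and Slc18a2 (0.79). Hmga2, a chromatin protein of immature cells, was highest in progenitor-gated cells, with 101 CPM there and 1.21 CPM in the other cells. Myct1 had 217 CPM there and 226 CPM in megakaryocyte-gated cells, and Slc18a2, the vesicular monoamine transporter, 97.6 CPM there and 702 CPM in basophil-gated cells. Measured in the same way against the mean of the 7 others, Muc13 (0.89), Meis1 (0.87) and Angpt1 (0.86) were the members most like the rest and Kit (0.51) the least.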

How the data were processed

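Single-cell RNA sequencing data of CD45+ synovial cells were analysed for 6 samples, 2 given PBS and 4 given PEPITEM. The authors used Cell Ranger (version 7 per the labels) with the mouse build mm10, removed ambient RNA with SoupX and doublets with DoubletFinder, filtered cells in Seurat, and deposited whole UMI counts of all cells in a single table, not scaled for depth. Whether reads in introns were counted is not given in the sources used here. Zeros written into the table for the members, between 20 and 61 for each gene, were read as 0.

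The members and the lists were chosen with earlier results of these data known. A class took a cell when at least 50% of its markers (dendritic cells: 3 of 7) had a UMI. A cell that met several gates went to the class with the largest share of its markers, and 1013 tied cells and 3811 cells with no gate were left out of the classes. CPM was computed from summed counts. Thinning to 5000 UMIs (seed 1) left out 6240 shallower cells, 4 of them progenitor-gated. Barcode numbers served as libraries of unknown treatment, so there are no replicates, standard deviations or tests, and the planned comparison of PBS and PEPITEM was not run. No doublet caller was run. Genes are named by a rule: the 8 members, counts over fixed lists with values of the leading genes in their written order, and the 10 genes most like the members. Some genes of the lists and of the gate enter counts only and are not reported here. Other genes are said to be chosen after their values were seen. The code for the ranking and the likeness was run on simulated counts in which some genes were raised in progenitor-gated cells and the others were flat. There likeness was measured against membership in that class. Likeness to the mean of the members, as given here, was not tested. Python 3.11.15 was used with numpy 2.4.6, pandas 2.3.3, scipy 1.17.1 and matplotlib 3.10.9.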

Additional observations from a re-analysis of the deposited data

How the results depend on the processing

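The number of members highest in progenitor-gated cells was 2 with 1 more marker required, with the median of the libraries, after thinning, with shares of cells in place of CPM, and without each library in turn (2 to 2). It was 1 when classes of 10 cells were ranked, because the 11 endothelial-gated cells then led for Mecom. The share of progenitor-gated cells, 1.10%, was 0.956% with 1 more marker, 0.640% with 2 UMIs for detection, 0.565% after thinning of the cells before gating, and 0.888% to 1.23% without 1 library. The share of cells with 3 or more members, 3.36%, was 2.24% with 2 UMIs for detection, 2.11% after thinning, 2.24% for 4 or more members, 6.32% for 2 or more members, 1.92% without Kit, Cd34 and Gata2, and 2.94% to 3.60% without 1 library. It was 3.14% without mast-, basophil-, fibroblast- and endothelial-gated cells, an alternative added after seeing the data, as were the classes of 10 cells and the shares of cells. Of 72 values of single members in progenitor-gated cells under these alternatives, 44 lay within the counting interval of the value reported, and every CPM stayed within 0.767 to 1.26 times it.

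Depth limits the shares of cells, which fell after thinning for every member in progenitor-gated cells. Classes with fewer than 50 cells, such as megakaryocyte-gated cells, rest on few cells per library. No paired analysis was possible because no cell carries a sample or replicate number of the labels. For the same reason the alternatives planned for the comparison of PBS and PEPITEM were not run.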
